A study of Mus musculus with 16 samples.

Results

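The genes described here encode potassium channels that shape the afterhyperpolarization, the dip in membrane potential that follows a nerve cell's action potentials. There were 7 members, Kcnn1, Kcnn2, Kcnn3, Kcnma1, Kcnmb4, Kcnq3 and Kcnq5, of 18193 genes that had a probe set naming 1 gene symbol. They were chosen by name, as genes of the SK, BK and M-type channels, and every probe set whose only symbol was a member was taken, 15 in all. Of the 7 members, 6 lay above the filter on low values, a mean over all arrays of 3.58 log2 units, and Kcnn3 lay below it.

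Hippocampal RNA came from 16 mice, all female and all 3xTg-AD. In this Alzheimer model, neuronal Thy1 elements drive mutant forms of human APP and tau as transgenes, and a presenilin gene holds a knocked-in mutation. From 10 months of age, 8 mice received a control diet and 8 a diet with pioglitazone (PIO) at 84 ppm, about 18 mg/kg of body weight per day, for about 14 weeks, and the labels give an age of 14 months. Both diets were given to mice of that genotype, so the values compare diets within the model and no unaffected strain. PIO is a thiazolidinedione, an agonist of the nuclear receptor PPARgamma, and the study asked which hippocampal genes it moves beside behaviour and electrophysiology, which were not analysed here.

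The afterhyperpolarization has phases carried by different channels. BK channels open with calcium and depolarization together and help to end the action potential, SK channels open with calcium alone through bound calmodulin, and M-type channels open slowly near the resting potential and are closed by muscarinic receptors. A slow phase, whose channels are less settled, is known to grow with age in hippocampal pyramidal neurons and to limit their repeated firing.

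PPARgamma binds DNA as a dimer at paired copies of a short element, AGGTCA, so promoter letters are shown for 3 members whose values are given below. RefSeq's promoter table (build GRCm38.p6) held 7 start sites for 5 of the 7 members, Kcnn1, Kcnn3, Kcnma1, Kcnmb4 and Kcnq5. The 150 bases before the start site of Kcnma1 (chr14:24004206-24004355, minus strand), Kcnmb4 (chr10:116473524-116473673, minus strand) and the first listed start of Kcnq5 (chr1:21962651-21962800, minus strand) read as follows, 5′ to 3′ on the gene's strand. Capitals mark GGGCGG, the core of a box bound by SP1, or its reverse complement.
Kcnma1: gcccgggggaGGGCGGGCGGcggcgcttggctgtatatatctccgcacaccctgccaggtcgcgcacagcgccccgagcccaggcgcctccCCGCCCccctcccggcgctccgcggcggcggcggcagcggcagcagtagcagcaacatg
Kcnmb4: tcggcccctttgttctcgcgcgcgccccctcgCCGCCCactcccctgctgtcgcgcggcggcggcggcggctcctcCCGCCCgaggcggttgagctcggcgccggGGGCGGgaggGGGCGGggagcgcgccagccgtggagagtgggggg
Kcnq5: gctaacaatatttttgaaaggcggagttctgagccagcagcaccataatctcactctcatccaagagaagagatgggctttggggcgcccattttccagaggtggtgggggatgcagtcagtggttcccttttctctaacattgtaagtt
On either strand of the 250 bases before the start, AGGTCA was found in 0 of the 7 member windows, against 14.0% of the 32851 windows kept. GGGCGG was found in 3 of the 7 member windows, against 32.7% of all windows kept: 3 times for Kcnma1, where 2 matches overlap, 4 times for Kcnmb4 and 1 time at a start of Kcnn1. The windows of Kcnn3, of Kcnq5 and of the other Kcnn1 start held none. The G and C share of that window was 79.2% for Kcnma1, 83.6% for Kcnmb4 and 44.4% for the Kcnq5 start shown, against a median of 52.4% over all windows kept. It was 60.8% for the other Kcnq5 start, 63.6% and 60.4% for the Kcnn1 starts and 58.8% for Kcnn3. A missing match says only that these letters are not in these windows.

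All arrays were alike over the whole table, with medians of 5.65 to 5.76 log2 units and correlations between arrays of 0.994 to 0.998. Forebrain neuron markers were high, with means of 12.95 (Camk2a) to 15.79 log2 units (Snap25). CA pyramidal markers ran from 4.08 (Iyd) to 11.22 (Wfs1). Dentate granule markers ran from 6.95 (Tdo2) to 9.67 (Dsp), with Prox1 at 8.16. Arrays differed in tissue content: choroid plexus markers stood in 2 separate clusters, with 6 arrays (4 control, 2 PIO) at list means of -3.64 to -2.56 and 10 arrays at 0.65 to 2.74 log2 units from the overall mean. PIO animals 14 and 15 were lowest in the dentate granule list (-0.99 and -0.89) and highest in the striatal list (0.78 and 0.92), and PIO animal 16 was highest in the thalamic list (1.37). Array numbers in the labels fell in the ranges 1 to 6 (4 control, 2 PIO) and 10 to 24 (4 control, 6 PIO), and 3 array codes held 11, 3 and 2 arrays, with no meaning given for either.

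No member passed the test of PIO against control. limma called 0 of 12266 genes at an adjusted p under 0.05 (0%), 0 of the 6 members among them, and the plain two-sample test called 0 as well. At an unadjusted p under 0.05 limma gave 859 genes (7.00%) and 0 of the 6 members, and the plain test gave 835 genes. The difference was below 0 for 5 of the 6 members, against 47.3% of all genes, and the median difference was -0.066 log2 units over the 6 members and 0.0045 over all genes. With 6 genes, these counts are a description. Because whole tissue was measured, fewer cells of a type and less RNA per cell cannot be told apart, and levels of different genes come from different probe sets and are not ranked here.

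**Figure D1:**
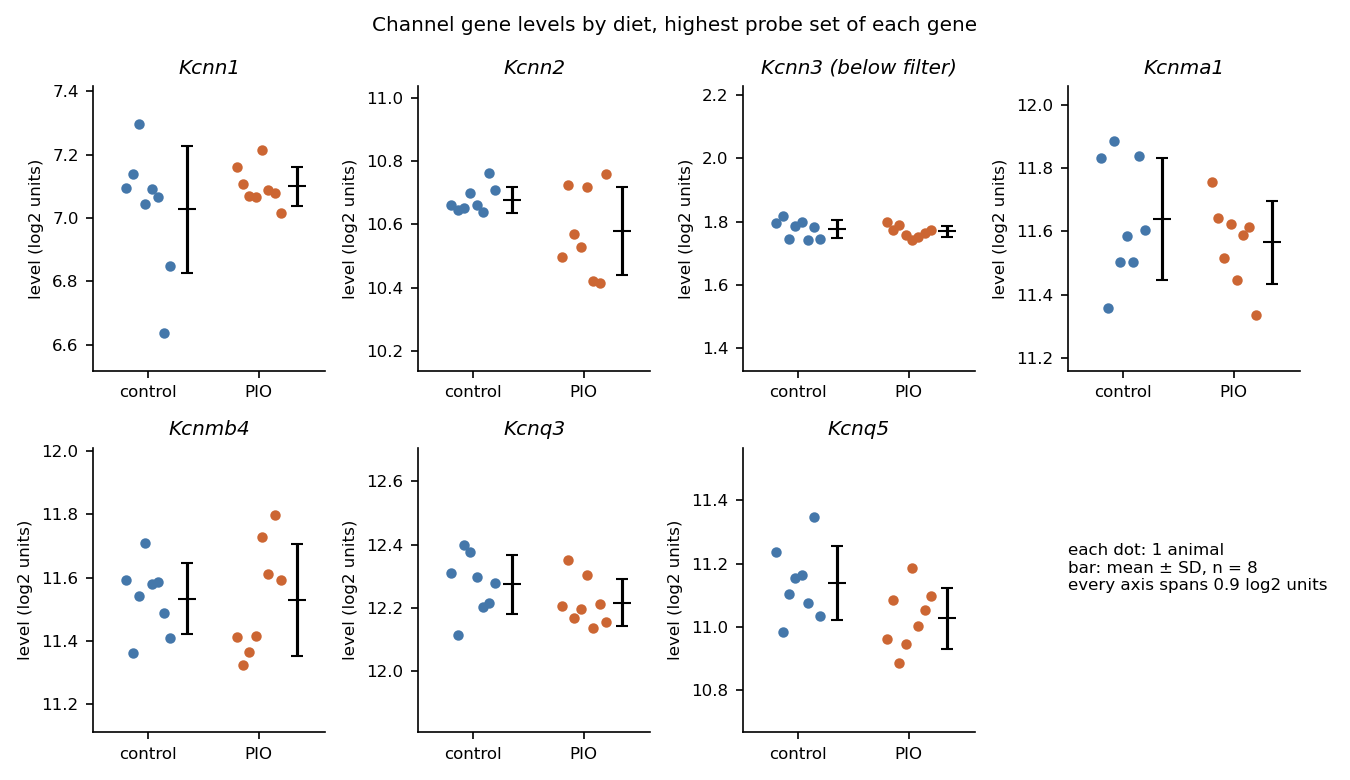
Level of each member in log2 units (vertical axis) in 8 control and 8 PIO animals, with 1 dot an animal and the bar the mean ± SD of a diet. The diets overlapped for every member, and 5 PIO animals lay below the lowest control for Kcnn2.

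SK channels are assemblies of Kcnn subunits with calmodulin bound to each subunit. Kcnn2 encodes SK2, the SK subunit of CA1 dendrites and spines. Its probe set 1448927_at measured a lowest, median and highest level of 10.64, 10.66 and 10.76 log2 units in control animals and 10.41, 10.55 and 10.76 in PIO animals. Of the 8 PIO animals, 5 lay below the lowest control and the other 3 lay within the control range. The mean was 10.68 ± 0.041 (SD, n = 8) in control and 10.58 ± 0.14 (SD, n = 8) in PIO animals, a difference of -0.099 (SE 0.052, 95% interval -0.21 to 0.011, limma adjusted p = 0.741). The exact permutation p, two-sided over 12870 splits, was 0.0749. The spread was wider among PIO than among control animals, with no test made of that.

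The lowest Kcnn2 levels were those of PIO animals 15 (10.41) and 14 (10.42), the animals with the highest striatal and the lowest dentate granule and CA pyramidal markers (CA means of -0.47 and -0.36). Without both, the Kcnn2 difference was -0.045 (SE 0.047), and with the dentate list mean or the striatal list mean as a covariate it was -0.062 or -0.061. The part of tissue content in the Kcnn2 value was not tested beyond these values. PIO animals 9, 11 and 12, also below the lowest control, measured 10.50, 10.57 and 10.53, and PIO animals 10, 13 and 16 measured 10.73, 10.72 and 10.76.

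Kcnn1 encodes SK1, a subunit of the same family that is also found in the forebrain. Its probe set 1419617_at measured a lowest, median and highest level of 6.64, 7.08 and 7.30 log2 units in control and 7.02, 7.08 and 7.22 in PIO animals. The PIO animals lay inside the control range, and the control animals 7 and 8 were the lowest of all. The difference was 0.073 (SE 0.072, 95% interval -0.079 to 0.23, limma adjusted p = 0.865). Single animals moved it, to 0.017 without control animal 7, 0.047 without control animal 8 and 0.11 without control animal 3. The second probe set, 1449536_at, measured 6.28, 6.70 and 7.07 in control and 6.11, 6.54 and 6.80 in PIO animals. Its difference had the other sign, -0.15 (SE 0.12), so the probe sets of Kcnn1 did not give one direction. Over 16 arrays they correlated at r = 0.28 (permutation p = 0.300) and rho = 0.44 (permutation p = 0.0861).

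Kcnn3 encodes SK3, an SK subunit best known from monoamine neurons. Its only probe set, 1421632_at, measured 1.74 to 1.82 log2 units in control and 1.74 to 1.80 in PIO animals. These values lie under the filter, in a narrow low band. The difference of -0.0073 (SE 0.016) is given for completeness and was left out of the counts of members tested.

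BK channels consist of the pore-forming alpha subunit Kcnma1 and modulatory beta subunits, of which Kcnmb4 (beta4) is the neuronal one and slows the opening of the channel. Kcnma1 had 5 probe sets, all above the filter. The brightest, 1424848_at, measured a lowest, median and highest level of 11.36, 11.60 and 11.88 log2 units in control and 11.33, 11.60 and 11.76 in PIO animals. Medians were alike and the diets overlapped, with 1 PIO animal below the lowest control. Means were 11.64 ± 0.19 (SD, n = 8) and 11.56 ± 0.13 (SD, n = 8), a difference of -0.074 (SE 0.079, 95% interval -0.24 to 0.092, limma adjusted p = 0.875). Single animals moved it, to -0.11 without control animal 2, and to -0.046, -0.039 and -0.046 without control animals 1, 3 and 7 in turn and -0.041 without PIO animal 16. With the choroid plexus list mean as a covariate, a single slope over its separate clusters of arrays, it was -0.048.

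The other Kcnma1 probe sets spanned a range of differences. Probe set 1425987_a_at, at 11.06 to 11.47 in control and 11.04 to 11.47 in PIO animals, differed by -0.031 (SE 0.064). Probe set 1428948_at, at 9.18 to 9.38 and 8.99 to 9.37, differed by -0.068 (SE 0.049), with 5 PIO animals below the lowest control. Probe set 1457018_at, at 8.02 to 9.24 and 8.27 to 9.16, differed by 0.010 (SE 0.14). The 95% interval of each of these differences included 0.

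The widest Kcnma1 difference belonged to the dimmest of its probe sets, 1440728_at. It measured 7.61, 7.95 and 8.24 log2 units as lowest, median and highest in control and 7.26, 7.67 and 7.79 in PIO animals. All 8 PIO animals lay below the control median and 4 lay below the lowest control, but the ranges overlapped. The difference was -0.33 (SE 0.10, 95% interval -0.55 to -0.11), with an unadjusted p of 0.00552 and a limma adjusted p of 0.864 over 45037 probe sets. By p it ranked 264 among them, so it was not called, and it was singled out here after its value was seen. Over 26 alternatives tried on this probe set the difference ran from -0.38 to -0.26, with adjusted p-values of 0.551 to 1.00. In arrays 10 to 24 alone it was -0.26 (SE 0.12), and in the largest array code alone -0.26.

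That probe set was set against the brightest Kcnma1 probe set. Their correlation over 16 arrays was r = 0.61 (permutation p = 0.0118, adjusted p = 0.153) and rho = 0.54 (permutation p = 0.0343, adjusted p = 0.223). Within control and PIO animals r was 0.62 and 0.63, in the largest array code 0.67, and without control animal 3 and PIO animal 16, the farthest from the median, 0.43. It was the highest of 13 correlations between probe sets of 1 gene, a family without Kcnq5 1441071_at, whose arrays fall in separate clusters. They ran from -0.21 to 0.61, with none at an adjusted p under 0.05.

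Over all 15 member probe sets, 12 differences were below 0 and 3 above, against 43.0% of all probe sets below 0. Probe sets of 1 gene are not independent, and the 12 include 4 of Kcnma1 and 3 of Kcnq5. In the fit over all probe sets limma called 0 of 45037 (0%) at an adjusted p under 0.05, and at an unadjusted p under 0.05 it gave 2 of the 15 member probe sets (13.3%), against 5.26% of all. Those were Kcnma1 1440728_at and Kcnq5 1457587_at. That background includes probe sets below the filter, while 14 of the 15 member probe sets lay above it. Among probe sets of 1 symbol above the filter, 7.23% had such a p. In that fit Kcnq5 1457587_at had an unadjusted limma p of 0.0593, so it was not among them. Kcnma1 1440728_at had an unadjusted limma p of 0.00492 when all probe sets above the filter were fitted.

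**Figure D2:**
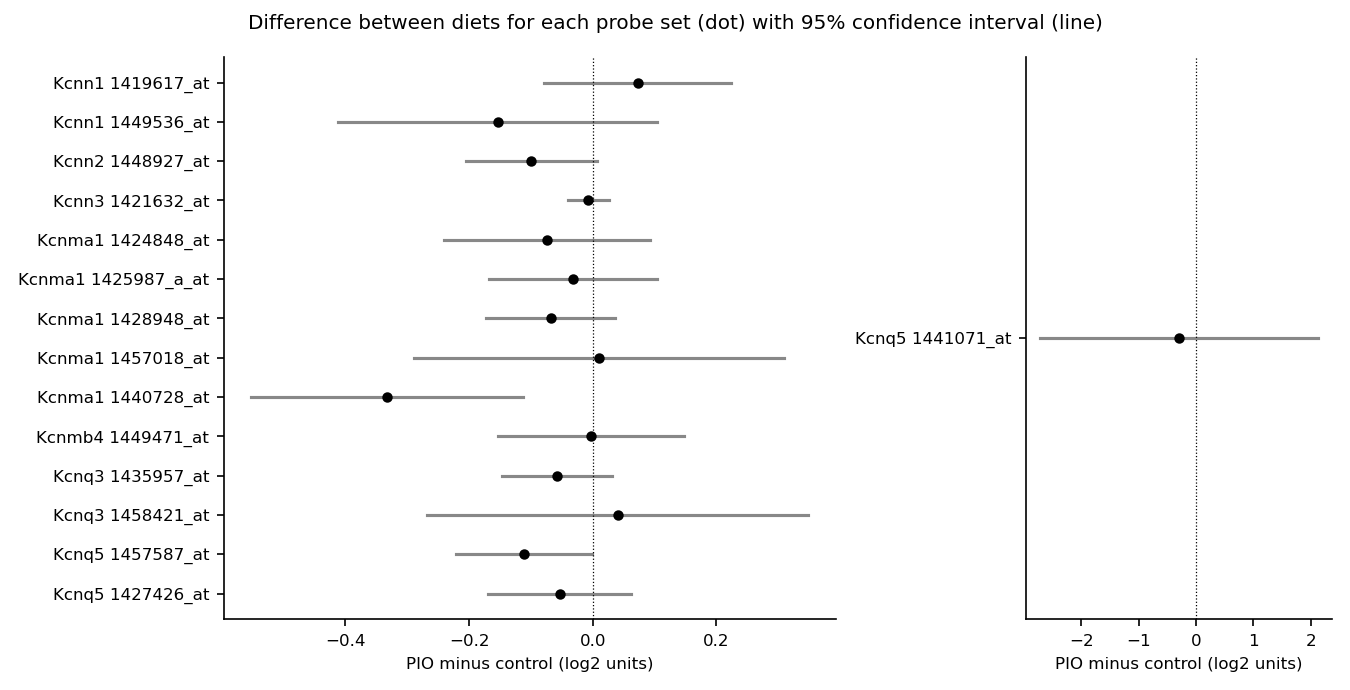
PIO minus control difference in log2 units (horizontal axis) for each of the 15 member probe sets, with dots for the limma estimate and lines for its 95% interval, and Kcnq5 1441071_at on an axis of its own. The interval excludes 0 for Kcnma1 1440728_at, at -0.33, and just excludes it for Kcnq5 1457587_at, at -0.11. These intervals are from the fit over all probe sets with no filter. In the fit over genes the interval of Kcnq5 1457587_at, -0.23 to 0.0037, includes 0.

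Kcnmb4 was measured by 1449471_at, at 11.36, 11.56 and 11.71 log2 units as lowest, median and highest in control and 11.32, 11.50 and 11.80 in PIO animals. The PIO animals spanned the control range on both sides, with 2 above the highest control and 1 below the lowest. Means were 11.53 ± 0.11 (SD, n = 8) and 11.53 ± 0.18 (SD, n = 8), and the difference was -0.0028 (SE 0.072, 95% interval -0.15 to 0.15, limma adjusted p = 0.998). The interval bounds what 8 animals a diet can resolve for this gene and does not show equal levels.

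The Kcnmb4 level varied with tissue markers, and of its relations that with dentate granule markers passed the adjustment. The dentate and CA lists were chosen after seeing the data, and the adjustment does not allow for that choice. Kcnmb4 correlated with the mean of 6 dentate granule markers at r = -0.65 (permutation p = 0.0044, adjusted p = 0.0396) and rho = -0.71 (permutation p = 0.00242, adjusted p = 0.0436), among 18 relations of 6 members with 3 marker lists. Without PIO animals 14 and 15, which are farthest from the median of the marker mean, r was -0.60. It was -0.42 within control and -0.78 within PIO animals, -0.64 in the largest array code and -0.73 in arrays 10 to 24. With the CA pyramidal list Kcnmb4 had r = -0.55 (permutation p = 0.0236, adjusted p = 0.0849) and rho = -0.52 (permutation p = 0.042), and with the striatal list r = 0.48 (permutation p = 0.0601, adjusted p = 0.180) and rho = 0.52 (permutation p = 0.0415). Without PIO animals 14 and 15 those were r = -0.27 and 0.11, within control animals -0.026 and 0.0099, and within PIO animals -0.74 and 0.69. With the dentate mean as a covariate the Kcnmb4 diet difference was -0.069 (SE 0.058), and without PIO animals 14 and 15 it was -0.061.

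Of these 18 relations 1 other passed, that of Kcnn2 with the mean of 6 CA pyramidal markers, and its r fell without the same animals. It was r = 0.72 (permutation p = 0.00242, adjusted p = 0.0396) and rho = 0.50 (permutation p = 0.051, adjusted p = 0.230). Without PIO animals 14 and 15 r was 0.21, with no test made of that value. Within control and PIO animals r was 0.47 and 0.70, in the largest array code 0.68 and in arrays 10 to 24 0.73. The relation of Kcnn2 with the striatal list had r = -0.61 (permutation p = 0.0122, adjusted p = 0.0550) and rho = -0.27 (permutation p = 0.305), and r = 0.097 without those animals. That with the dentate granule list had r = 0.62 (permutation p = 0.0111, adjusted p = 0.0550) and rho = 0.26 (permutation p = 0.332), and r = -0.053 without those animals.

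**Figure D3:**
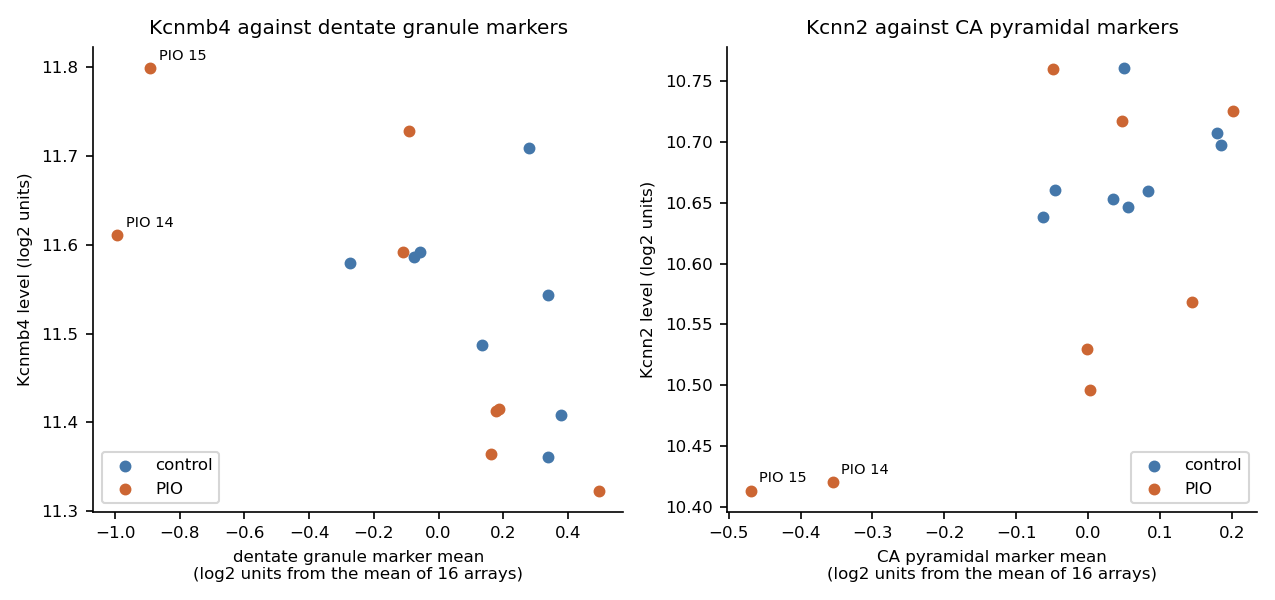
Level of Kcnmb4 against the dentate granule marker mean and of Kcnn2 against the CA pyramidal marker mean, all in log2 units, with 1 dot an animal coloured by diet. The Kcnmb4 relation (r = -0.65) was -0.60 without PIO animals 14 and 15, while the Kcnn2 relation (r = 0.72) was 0.21 without them.

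M-type channels combine Kcnq subunits and are closed when receptors coupled to Gq deplete membrane PIP2. Kcnq3 encodes a subunit that joins others of the family, and was measured by 1435957_at at 12.11, 12.29 and 12.40 log2 units as lowest, median and highest in control and 12.14, 12.20 and 12.35 in PIO animals. The PIO animals lay inside the control range. The difference was -0.057 (SE 0.045, 95% interval -0.15 to 0.038, limma adjusted p = 0.821), and the exact permutation p was 0.199. The dimmer probe set 1458421_at measured 5.60 to 6.70 in control and 5.80 to 6.78 in PIO animals, a difference of 0.041 (SE 0.15) with the other sign. The pair correlated at r = 0.45 (permutation p = 0.0788) and rho = 0.44 (permutation p = 0.0902).

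Kcnq5 encodes another M-type subunit of the forebrain and had the smallest p of the members. Its brightest probe set, 1457587_at, measured a lowest, median and highest level of 10.98, 11.13 and 11.35 log2 units in control and 10.89, 11.03 and 11.19 in PIO animals. Of the PIO animals 7 lay below the control median and 3 below the lowest control, and the ranges overlapped. Means were 11.14 ± 0.12 (SD, n = 8) and 11.03 ± 0.097 (SD, n = 8), a difference of -0.11 (SE 0.054, 95% interval -0.23 to 0.0037), or 0.926 of the control level. The limma adjusted p was 0.724, the unadjusted p 0.0570 and the exact permutation p 0.0564. With the choroid plexus list mean as a covariate, a single slope over its separate clusters of arrays, the difference was -0.075 (SE 0.046).

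The second Kcnq5 probe set, 1427426_at, measured 9.62 to 9.97 in control and 9.65 to 9.93 in PIO animals and differed by -0.054 (SE 0.054). It correlated with the first at r = 0.55 (permutation p = 0.0267, adjusted p = 0.174) and rho = 0.58 (permutation p = 0.0208, adjusted p = 0.223), and at r = 0.46 without control animal 7 and PIO animal 11. Within control animals r was 0.31 and within PIO animals 0.80. The direction of both probe sets was the same, with a smaller size in the second.

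The third Kcnq5 probe set, 1441071_at, split the animals without regard to diet. Control animals 4 and 7 measured 4.91 and 4.84 log2 units and PIO animals 12 and 13 measured 4.57 and 2.93, while the other 12 arrays lay at 8.64 to 9.93. The gap between the low and the high arrays was 3.74 log2 units, and 24 of 45037 probe sets had a gap as large. In the same 4 arrays the brightest Kcnq5 probe set measured 11.15, 11.35, 10.95 and 11.19, and the second 9.62, 9.89, 9.67 and 9.87, all within or near the range of the other animals. No other probe set, 0 of 45037, had its largest gap between the same 4 arrays and the rest at 0.5 log2 units or more. Smaller gaps within a probe set were not searched. The low arrays came from both diets and from more than 1 array code, and the difference between diets, -0.30 (SE 1.14), gives no reading. What set these 4 animals apart was not tested.

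**Figure D4:**
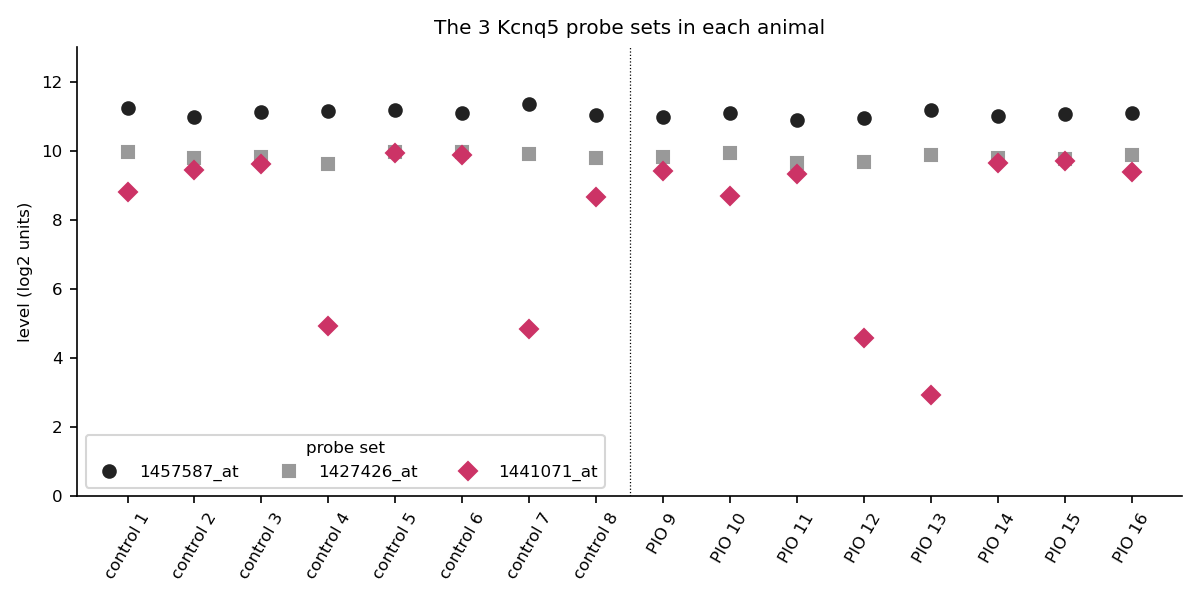
Level in log2 units (vertical axis) of the 3 Kcnq5 probe sets in each of the 16 animals (horizontal axis), with the dotted line between control and PIO animals. Probe set 1441071_at is at 2.93 to 4.91 in 4 animals and at 8.64 to 9.93 in 12, while the other probe sets stay within 9.62 to 11.35 in all.

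Pairs of members were set against each other over the 16 arrays. Of the 15 pairs among 6 members r ran from -0.38 to 0.60, and none had an adjusted p under 0.05. The highest was that of Kcnn2 with Kcnq5, an SK and an M-type gene, at r = 0.60 (permutation p = 0.0148, adjusted p = 0.222) and rho = 0.68 (permutation p = 0.00555, adjusted p = 0.0631). Without PIO animals 14 and 15, farthest from the Kcnn2 median, r was 0.71. It was 0.61 within control and 0.57 within PIO animals, 0.65 in the largest array code and 0.60 in arrays 10 to 24.

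Diet differences were also taken within the array number ranges. For arrays 1 to 6 and 10 to 24 in turn, the difference was -0.054 and -0.12 for Kcnn2, -0.097 and -0.13 for Kcnq5, and -0.020 and -0.052 for Kcnq3. These kept their sign. The values were -0.011 and 0.18 for Kcnn1, 0.054 and -0.11 for Kcnma1, and -0.18 and 0.069 for Kcnmb4, so that the sign differed between ranges. The interaction of diet with range had limma adjusted p-values from 0.813 for Kcnmb4, at -0.25 (SE 0.15), to 0.972 for Kcnq5, with 0 of 6 members called and 3 of 12266 genes called (0.0245%). Between the ranges themselves, with diet in the fit, limma called 0 of 6 members and 1 of 12266 genes (0.00815%), and Kcnn1 had the smallest p of the members, at 0.15 (SE 0.069, adjusted p = 0.475) higher in arrays 1 to 6.

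Genes of the pathway around these channels were read from a list of 29 that gate or modulate them, of which 23 were measured. Calcium channels, ryanodine receptors and muscarinic receptors are among them. limma called 0 of the 23, with 9 differences above and 14 below 0 and a median of -0.030 log2 units. At an unadjusted p under 0.05 there were 2 (8.7%, against 7.00% of all genes), both lower in PIO animals. Ryr2, the ryanodine receptor that releases calcium from stores, was at 13.26 in control and 13.12 in PIO animals, a difference of -0.14 (SE 0.049, limma adjusted p = 0.664). Cacna1a, the pore of P/Q-type calcium channels, differed by -0.15 (SE 0.060, limma adjusted p = 0.681). The other ryanodine receptor measured, Ryr3, differed by -0.17 (SE 0.081), and the serotonin receptor Htr7 by 0.11 (SE 0.058), neither past an unadjusted p of 0.05.

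Other potassium and HCN channel genes were nearly evenly split. Of 60 listed genes 44 were measured, 21 with a difference above 0 and 23 below, with a median of -0.0036 log2 units and 0 called by limma. The smallest p belonged to Kcnj16, an inward rectifier found in glia, at 0.31 (SE 0.086, limma adjusted p = 0.532). Its partner Kcnj10, the main astrocyte inward rectifier, had the other sign, -0.14 (SE 0.074). Kcna1, an axonal delayed rectifier, differed by -0.13 (SE 0.052, limma adjusted p = 0.681). Kcna5 had the widest difference in the list, 0.64, with an SE of 0.35.

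The genes whose levels were most like each member over 16 arrays, by Pearson r among 12266 genes, were as follows. For the SK genes they were Ctdsp2 (0.88), Gpd1 (0.87) and Spink8 (0.85) with Kcnn2, and Srek1 (0.86), Nfya (0.82) and Trit1 (0.81) with Kcnn1. Spink8 is 1 of the 6 CA pyramidal markers used above. For the BK genes they were Sp1 (0.77), Ttbk2 (0.72) and Fat3 (0.71) with Kcnma1, and Ier5 (0.92), Tpd52 (0.89) and A430046D13Rik (0.89) with Kcnmb4. For the M-type genes they were Plch2, Nckipsd and Zmynd8, each at 0.83, with Kcnq3, and Zfp335 (0.87), Wnt10a (0.86) and Scn1a (0.86) with Kcnq5. The arrays differ in tissue content, so likeness here says only that levels moved together over these 16 animals.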

How the data were processed

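Total RNA from the hippocampus of 16 animals was measured on Affymetrix arrays, 1 array an animal. The deposited values are 1 log2 number per probe set and array, with the scale read from the values, which run from 0.33 to 16.6. Per the submitters' processing notes, the named tools are MAS5, GCRMA and R 2.7.1, with no role stated. Which method made the authors' log2 values is not given in the sources read. Scanner files and detection calls were not used here, and precision is limited by how many arrays there are.

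Of 45101 probe sets, 64 control probe sets were left out. Symbols came from the platform annotation: 34945 probe sets had 1 symbol, 932 several and 9160 none, and 34741 Entrez identifiers, those of all 7 members included, were found in RefSeq's gene table. The 40th percentile of mean level, 3.58 log2 units, was the filter, and the probe set of highest mean stood for a gene. limma 3.58.1 in R 4.3.3 (lmFit and eBayes) compared diets over 16 arrays, with Benjamini-Hochberg adjustment over 12266 genes, or over 45037 probe sets with no filter. The procedure was also run on simulated data with independent noise for each gene, which lack the tissue differences between these arrays. No statement about the members rests on that run. Animals are the replicates, so each limma p-value sets a diet difference against the spread between animals within a diet. The permutation p-values come from shuffling values or diet labels over the 16 arrays. Array codes and number ranges are named as the labels give them, with no meaning stated.

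Members and gene lists were chosen with earlier results of these data known. The text names the 7 members, the 3 genes most like each, and from each pathway list the 4 genes of smallest unadjusted p. Marker lists are summarised as the mean of each gene's deviation from its overall mean. PIO minus control, the counts above and below 0 were 2 and 6 for forebrain neurons, 1 and 5 for CA pyramidal cells, 0 and 6 for dentate granule cells, 5 and 2 for interneurons, 9 and 1 for striatum, 7 and 0 for thalamus, 11 and 0 for choroid plexus, 0 and 9 for oligodendrocytes, 0 and 8 for astrocytes and 1 and 9 for microglia, with 0 called in each by limma. The striatal marker Drd2 and the thalamic marker Tnnt1 lay below the filter. Choroid plexus means fell in separate clusters, so no correlation with them over all arrays is given. Fits with that mean as a covariate take a single slope over both clusters. Within the low and the high cluster in turn, r was 0.45 and -0.68 for Kcnma1, -0.71 and -0.51 for Kcnq5, and -0.69 and -0.53 for Kcnmb4. For the other members tested, r was -0.88 and 0.36 for Kcnn2, 0.16 and -0.69 for Kcnn1, and -0.34 and -0.49 for Kcnq3. The part of choroid content in the diet differences was not tested beyond these values. Correlations used 100000 permutations, two-sided. The dentate and CA relations, the dentate covariate, the fits without PIO animals 14 and 15 and the alternatives for probe set 1440728_at were chosen after seeing the data. Promoter sequences are RefSeq's, build GRCm38.p6, with chr18 left out, and no build is named for the array design.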

Additional observations from a re-analysis of the deposited data

Results flagged for a closer look

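Among the 30 groups of 8 animals formed by the 15 member probe sets and 2 diets, 1 held an animal far from the others. For Kcnma1 probe set 1457018_at, control animal 4 measured 8.02 log2 units and the next lowest control 8.67, a gap of 0.534 of the group's whole range, past Dixon's critical value. Chance alone sets about 1 in 20 such groups apart.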

How the results depend on the processing

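For the 6 members, 166 alternatives recomputed the diet difference to another value, of which 153 kept the sign of the reported value and 13 turned it. These include leaving out each animal in turn, fits that share most arrays with the reported one. Alternatives that alter only the test or the genes tested return the same estimate and are not counted here. None was called, with adjusted p-values of 0.504 to 1.00, and the counts of members and genes called were 0 in each of these settings. Values ran from -0.15 log2 units, for Kcnq5 with the mean of its probe sets, to 0.18, for Kcnn1 in arrays 10 to 24 alone. That Kcnq5 mean (SE 0.37) includes probe set 1441071_at, and in the same setting Kcnq3 was at -0.0081. The values of Kcnn2, Kcnma1, Kcnq3 and Kcnq5 kept their sign in the alternatives tried, which did not include arrays 1 to 6 alone, where Kcnma1 was at 0.054. Kcnn1 turned to -0.040 with the mean of its probe sets and to -0.019 in the largest array code alone. Kcnmb4 turned to 0.018 with array code as a block, 0.069 in arrays 10 to 24 alone and 0.028 with the choroid list mean as a covariate, and ran from -0.041 to 0.027 when each animal was left out in turn. The same range was -0.13 to -0.076 for Kcnn2, -0.080 to -0.039 for Kcnq3 and -0.13 to -0.081 for Kcnq5. With the choroid covariate Kcnq5 was at -0.075. The Kcnq5 array number range value, -0.023, turned to 0.0053 with arrays set to a common median. Genes at an unadjusted p under 0.05 numbered 859 of 12266 (7.00%), 290 in the largest array code and 517 without PIO animals 14 and 15. With every probe set of 1 symbol above the filter on its own, 1649 of 22811 probe sets (7.23%) had such a p. A filter at the 60th percentile left out Kcnn1. No paired analysis was possible because the animals carry separate numbers in the 2 diets. With 8 animals a diet, the median SE over genes was 0.064 log2 units, wider than the median absolute difference of 0.050.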

Other observations

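Among channels close in function to the members, none was called by limma, and the 5 below were picked by function after their values were seen. Kcnmb2, a BK beta subunit that inactivates the channel, was at 7.17 log2 units in control and 7.23 in PIO animals, a difference of 0.069 (SE 0.052). The sodium-activated channels Kcnt1 and Kcnt2, which can add to slow afterpotentials, differed by 0.14 (SE 0.20) and -0.071 (SE 0.073). Kcnd2, the pore of dendritic A-type current, was at 12.91 and 12.90, a difference of -0.0031 (SE 0.054). Hcn2, which carries the h-current, was at 9.61 and 9.62, a difference of 0.014 (SE 0.050).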
